A study of Rattus norvegicus with 6 samples.

Results

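The subunits of the DREAM complex were examined by RNA-seq in neonatal rat cardiomyocytes in which DYRK1A was targeted with an siRNA. The 10 genes Lin9, Lin37, Lin52, Lin54, Rbbp4, Rbl1, Rbl2, E2f4, Tfdp1 and Mybl2 were taken by symbol from the count table. The table also lists transcripts that the authors added to the annotation, named added transcripts here. Those that overlap a subunit on its own strand were taken as well, which gave 19 features of the 43035 in the table, 10 annotated genes and 9 added transcripts. The cells came from Sprague-Dawley rats at postnatal day 1 and were kept in medium with fetal bovine serum. One group of 3 biological replicates received a scrambled siRNA (si-NC) and the other group of 3 an siRNA against DYRK1A (si-DYRK1A), and the RNA of both was collected 48 h after transfection. Primary cultures of this kind also hold other cells of the heart.

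DREAM is a complex of a repressive pocket protein, an E2F factor with its DP partner, and a core named MuvB. In resting cells it sits on the promoters of cell cycle genes and keeps them silent. DYRK1A phosphorylates LIN52, a step that lets the pocket protein bind MuvB, and when cells enter the cycle MuvB leaves the pocket protein and joins B-MYB to activate genes of mitosis. The comparison of si-DYRK1A with si-NC addresses whether the mRNAs of these proteins, and of their known target genes, differ once DYRK1A is targeted. The assembly of the complex and the phosphorylation of LIN52 are not measured by RNA-seq.

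The libraries held 10325074 to 11921772 counts in the si-NC group and 10703229 to 11723974 in the si-DYRK1A group. A floor of 3 counts corresponds to 0.252 to 0.291 CPM (counts scaled to the library total), which covers counting error only. The CPM values of genes and transcripts below are in addition scaled by the TMM method. Dyrk1a itself (ENSRNOG00000001662, chromosome 11) had 3, 0 and 1 reads in si-NC and 2, 1 and 0 in the other group, and an added transcript over it was 77.7 ± 3.22 CPM in si-NC and 82.4 ± 2.70 CPM in si-DYRK1A (SD, n = 3 each). With a log2 fold change of 0.08 and an edgeR adjusted p of 0.374, no lowering was seen at the targeted locus in the libraries labelled si-DYRK1A, and every direction given below rests on their labels. Of the cardiomyocyte markers, 7 of 11 were above 0, while Tnni3, Myh6, Myh7 and Myl2 had no count in any library. An added transcript covers each of these 4 genes, as it does Pdgfra, Acta2, Myh11 and Cd68 of the lists that follow. These zeros therefore do not show absent expression, and the sums leave these markers out. Tnnt2, Ryr2, Myl7, Dcn, Postn, Tagln, Rgs5 and Cd14 are covered too, and the sums hold only the counts of their annotated genes. The summed cardiomyocyte markers ranged from 18963 to 19667 CPM in si-NC and from 22221 to 23175 CPM in si-DYRK1A. The fibroblast markers, of which 6 of 8 were above 0 and Pdgfra was at 0, ranged from 24785 to 29632 and from 24015 to 24982 CPM. Within that sum, Postn and Vim were called higher in si-DYRK1A (log2 fold changes 1.10 and 0.23), while Col1a1 gave -0.37 and was not called. The annotated Postn gene, covered by an added transcript, had 71 to 182 counts per library. The endothelial markers (5 of 6 above 0) ranged from 163 to 182 and from 130 to 137 CPM. The smooth muscle markers (3 of 5, Acta2 and Myh11 at 0) ranged from 556 to 563 and from 545 to 569 CPM. Nearly all of this sum was Cnn1 (means 556.4 CPM in si-NC and 553.7 CPM in si-DYRK1A), and Tagln gave -0.66 and was not called. The macrophage markers (7 of 8, Cd68 at 0) ranged from 221 to 227 and from 226 to 255 CPM. Lyz2, called higher (0.41), had means of 88.8 CPM in si-NC and 117.8 CPM in si-DYRK1A. Adgre1, Ptprc and Csf1r gave -0.54, -0.21 and -0.13, and C1qa and C1qb gave 0.15 and 0.07, none of them called. The cardiomyocyte sum was higher and the endothelial sum lower in every library labelled si-DYRK1A. A two-sided exact permutation test over the libraries gave p = 0.1 for each, the smallest that 3 libraries against 3 allow. Among single features tested, 16.2% were separated in this way with higher and 15.3% with lower levels, and 8.03% were called higher and 7.19% lower. Actc1 and Nppa, with means of 9976 and 7556.6 CPM in si-NC, made up most of the cardiomyocyte sum. Nppa, Actn2, Pln and Actc1 were called higher (log2 fold changes 0.37, 0.31, 0.15 and 0.13), and Tnnt2 gave -0.14 and was not called. Of the endothelial markers, Tek, Tie1 and Cdh5 were called lower (-0.75, -0.43 and -0.31), while Vwf (-0.53) and Kdr (-0.01) were not called. The part of cell composition in the differences given here was not tested. In bulk RNA, fewer cells of a type and less RNA per cell cannot be told apart.

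Counts were found for few of the subunits. Only Tfdp1 and the added transcript over Lin52 had enough counts to be tested, and 16 of the 19 features stayed below 10 counts in every library. Tfdp1 was higher in the libraries labelled si-DYRK1A, by 1.13-fold, and the Lin52 transcript did not pass the test. The other subunits were left out of the test, and of these the Lin9 transcript, with at most 10 counts in a library, is compared further on without that filter.

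**Figure D1:**
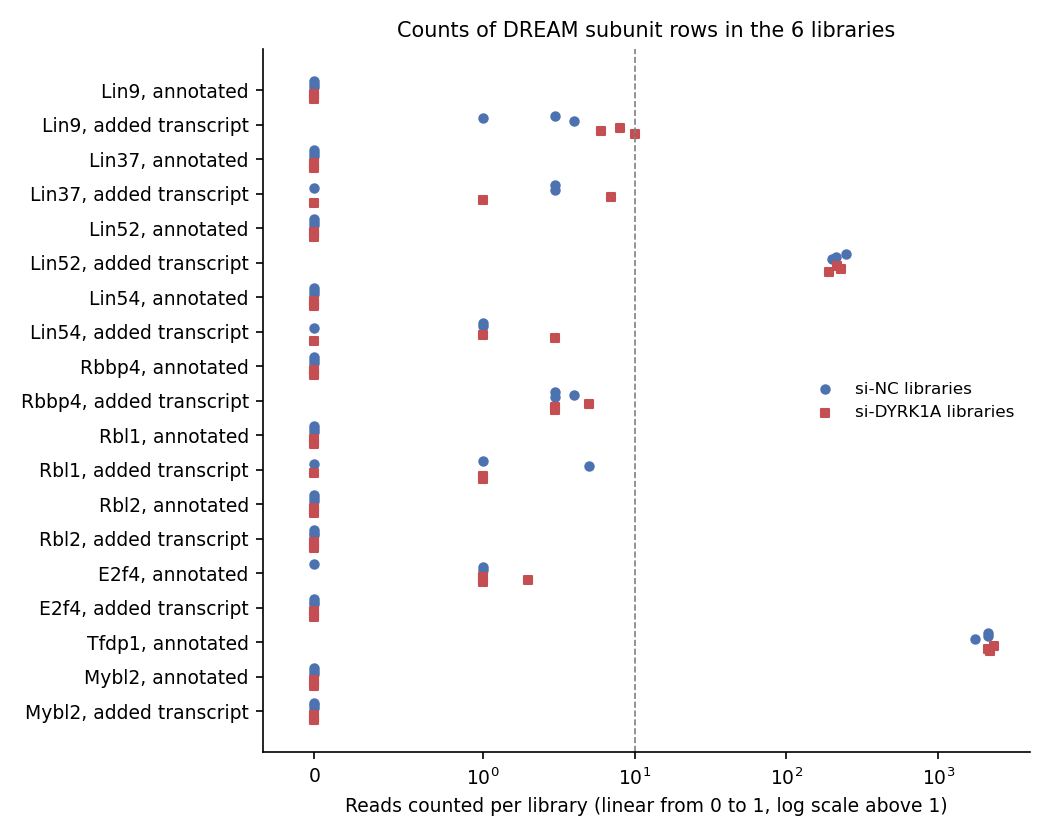
Reads counted per library (linear from 0 to 1, log scale above) for each annotated subunit gene and each added transcript over one, with circles for the 3 si-NC libraries and squares for the 3 libraries labelled si-DYRK1A. The dashed line marks 10 counts. Tfdp1 lies between 1748 and 2322 counts and the Lin52 transcript between 191 and 248, whereas no other feature exceeds 10.

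Tfdp1 (ENSRNOG00000019222, chr16:81089292-81127257 of Rnor_6.0, plus strand) encodes DP1, the partner that E2F factors need to bind DNA. It is the subunit that no added transcript overlaps. In si-NC it had 1748, 2125 and 2110 counts, and in si-DYRK1A 2178, 2109 and 2322, so that the raw counts overlapped. After scaling to library size by the TMM method its level was 167.6, 179.7 and 176.4 CPM in si-NC and 191.6, 198.6 and 201.0 CPM in si-DYRK1A. All 3 libraries labelled si-DYRK1A thus lay above all 3 si-NC libraries, with the lowest of the former 191.6 CPM and the highest of the latter 179.7 CPM. Of all features tested, 16.2% were separated in this direction.

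The mean level of Tfdp1 was 174.6 ± 6.26 CPM in si-NC and 197.0 ± 4.89 CPM in si-DYRK1A (SD, n = 3 each). Per gene length, the deposited FPKM gave 70.7 ± 2.75 and 79.6 ± 1.98. On the log2 scale the difference was 0.17 with a standard error of 0.0466 and a 95% interval of 0.08 to 0.27, a fold of 1.13 (1.06 to 1.21). The quasi-likelihood test of edgeR gave it an adjusted p of 0.013. For this gene alone, a two-sided exact permutation test over the libraries gave p = 0.1, the smallest that 3 libraries against 3 allow. Of the 2 subunit features tested, 1 was called higher, and of all features tested 8.03% were called higher, 7.19% lower and 15.2% in either direction. The change of Tfdp1 was small beside the other calls, since 7.33% of them had a smaller absolute log2 fold change and their median was 0.377.

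The call for Tfdp1 depended on the libraries and on the test. Leaving out si-NC replicate 1 moved the edgeR adjusted p to 0.0919, leaving out si-DYRK1A replicate 2 to 0.0664 and leaving out si-DYRK1A replicate 3 to 0.0694, while the log2 fold change stayed between 0.14 and 0.19 in the 16 alternatives. DESeq2 gave an adjusted p of 0.0305, and limma on log2(FPKM + 1) gave 0.0643, within a range of 0.0105 to 0.115 over the alternatives.

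**Figure D2:**
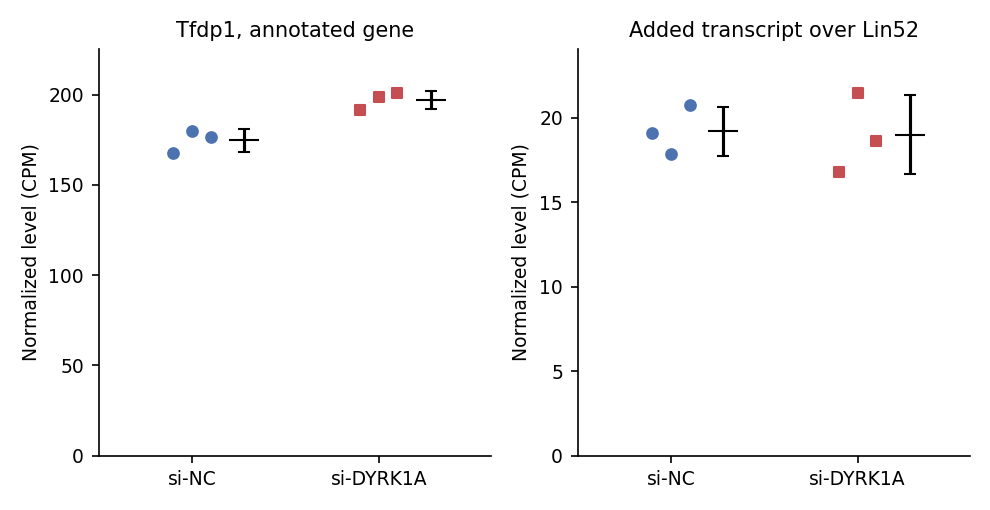
Normalized level (CPM, axis from 0) of Tfdp1 and of the added transcript over Lin52, with one point per library and the mean ± SD (n = 3) beside each group. The Tfdp1 groups do not overlap (highest si-NC library 179.7 CPM, lowest si-DYRK1A library 191.6 CPM), whereas the Lin52 groups do.

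The promoter of Tfdp1 is shown because 2 DNA elements tie DREAM to its targets. The cell cycle homology region (CHR), searched as TTTGAA and TTCGAA, is bound by LIN54, and the E2F element, searched as TTTCCCGC, TTTCGCGC, TTTGCCGC and TTTGGCGC, is bound by E2F with DP. Both were searched on both strands of the RefSeq promoter windows of GRCr8, which run from 250 bases before to 50 bases after the listed start. Capitals mark the matches in this and the following sequences, and a match is a description of letters, not of binding. Tfdp1 held a CHR match that begins 92 bases before the listed start and no E2F match. Whether the listed start is the one used in these cells was not tested. The gene is listed on the plus strand of Rnor_6.0 but its promoter on the minus strand of GRCr8, and the reason was not tested.
Tfdp1 promoter (GRCr8, chr16:82902104-82902403, minus strand): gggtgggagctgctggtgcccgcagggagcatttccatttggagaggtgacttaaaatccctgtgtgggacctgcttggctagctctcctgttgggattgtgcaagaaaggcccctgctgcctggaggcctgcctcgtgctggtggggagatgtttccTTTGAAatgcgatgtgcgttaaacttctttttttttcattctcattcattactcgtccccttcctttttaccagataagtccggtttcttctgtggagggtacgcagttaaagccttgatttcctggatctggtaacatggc

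LIN52 is the MuvB protein that DYRK1A phosphorylates. The annotated Lin52 gene (ENSRNOG00000043441, chr6:108167716-108178508 of Rnor_6.0, plus strand) had no count in any library. Its added transcript spans chr6:108167481-108250184 on the same strand, starts 235 bases before the annotated gene, ends 71676 bases after it and overlaps no other annotated gene. The listed length is 2454 bases against 294 for the annotated gene. In the RefSeq annotation of GRCr8, Lin52 spans 97227 bases, compared with 82704 for the added transcript and 10793 for the annotated gene in the table.

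This transcript had 199, 211 and 248 counts in si-NC and 191, 228 and 215 in si-DYRK1A. In CPM these were 19.08, 17.84 and 20.74 against 16.80, 21.47 and 18.61, so that both the lowest and the highest library were labelled si-DYRK1A. The means were 19.2 ± 1.45 and 19.0 ± 2.36 CPM (SD, n = 3 each), and the deposited FPKM gave 7.78 ± 0.58 and 7.65 ± 0.957. The difference on the log2 scale was -0.02, with a standard error of 0.110, a 95% interval of -0.25 to 0.21 and an edgeR adjusted p of 0.931. That interval allows folds from 0.841 to 1.15. The sign turned positive without si-NC replicate 3 (0.03) and without si-DYRK1A replicate 1 (0.06).

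The Lin52 promoter is shown because its sequence carries an E2F match, which begins 25 bases before the listed start. It held no CHR match.
Lin52 promoter (GRCr8, chr6:109829999-109830298, plus strand): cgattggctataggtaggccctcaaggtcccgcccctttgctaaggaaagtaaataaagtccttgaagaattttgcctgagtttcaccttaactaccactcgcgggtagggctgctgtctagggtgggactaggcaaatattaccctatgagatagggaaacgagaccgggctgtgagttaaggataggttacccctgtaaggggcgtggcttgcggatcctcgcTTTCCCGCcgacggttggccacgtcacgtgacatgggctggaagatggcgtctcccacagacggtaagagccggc

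LIN9 is another MuvB protein and a partner of B-MYB. The annotated Lin9 gene (ENSRNOG00000023304, chr13:98924962-98967735, plus strand) had no count, and the added transcript over it had 4, 1 and 3 counts in si-NC and 10, 6 and 8 in si-DYRK1A. The groups did not overlap, and such separation with higher levels in si-DYRK1A was found in 7.23% of the 4177 features that the filter left out and that had at least 15 counts in all. The summed counts were 8 and 24, a ratio per total counts of 3.01 with an exact 95% interval of 1.31 to 7.74 that covers counting error only. Without the filter, edgeR put the log2 difference at 1.55 with a standard error of 0.732 and an adjusted p of 0.196, and DESeq2 at 1.59 (standard error 0.932) with no adjusted p, so Lin9 was not called at this depth. The Lin9 promoter held CHR matches that begin 58 and 3 bases before the listed start, of which the first reads the same on both strands.
Lin9 promoter (GRCr8, chr13:94906553-94906852, plus strand): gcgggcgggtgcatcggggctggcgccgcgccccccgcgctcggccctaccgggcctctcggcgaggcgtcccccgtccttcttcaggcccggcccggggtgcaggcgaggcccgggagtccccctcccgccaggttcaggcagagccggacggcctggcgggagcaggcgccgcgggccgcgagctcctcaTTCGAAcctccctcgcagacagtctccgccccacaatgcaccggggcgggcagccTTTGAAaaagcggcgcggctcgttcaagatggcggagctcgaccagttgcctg

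The remaining MuvB genes were at or near 0. LIN37, which MuvB needs for repression, is encoded by Lin37 (ENSRNOG00000020929, chromosome 1, 89010257 to 89014189), whose annotated gene was at 0 and whose added transcript had 3, 0 and 3 counts in si-NC and 0, 1 and 7 in si-DYRK1A. Lin54 (ENSRNOG00000002203, chromosome 14, 10786399 to 10828106) encodes the DNA-binding protein of MuvB and was at 0, with 0, 1 and 1 against 0, 3 and 1 counts in its added transcript. That transcript also overlaps the annotated gene Gm23222. Rbbp4 (ENSRNOG00000021492, chromosome 5, 147499882 to 147535240) encodes a histone-binding protein of several chromatin complexes and was at 0, with 3, 4 and 3 against 3, 3 and 5 counts in its added transcript. The groups overlapped for all of these transcripts. On the opposite strand, an added transcript with 812 counts overlaps Rbbp4 by 3 bases and was not counted as a member.

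The pocket proteins p107 and p130 hold E2F4 on DREAM targets. Rbl1, which encodes p107 (ENSRNOG00000006921, chromosome 3, 153263692 to 153321352), was at 0, and its added transcript had 5, 0 and 1 counts in si-NC and 1, 1 and 0 in si-DYRK1A. This transcript also overlaps Mroh8. Rbl2, which encodes p130, the main pocket protein of DREAM in resting cells (ENSRNOG00000012153, chromosome 19, 17300089 to 17346808), was at 0 in every library, as was its added transcript. E2f4, the repressive E2F factor of DREAM (ENSRNOG00000015708, chromosome 19, 37252843 to 37260239), had 1, 1 and 0 counts in si-NC and 1, 2 and 1 in si-DYRK1A, and none in its added transcript. Mybl2, which encodes the activator B-MYB (ENSRNOG00000007805, chromosome 3, 159421671 to 159450086), was at 0 in both of its features, and its added transcript also overlaps a 5S_rRNA gene. With 0 counts for Rbl2, no ratio of Mybl2 or Rbl1 to Rbl2 could be formed. These values do not show that the genes are silent, since they lie where an added transcript covers the gene.

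All 9 added transcripts covered the whole of their annotated gene. Those over Lin37, Rbl2, E2f4 and Mybl2 had the same start and end as the gene, while those over Lin54 and Rbl1 began 16331 and 12037 bases before it.

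**Figure D3:**
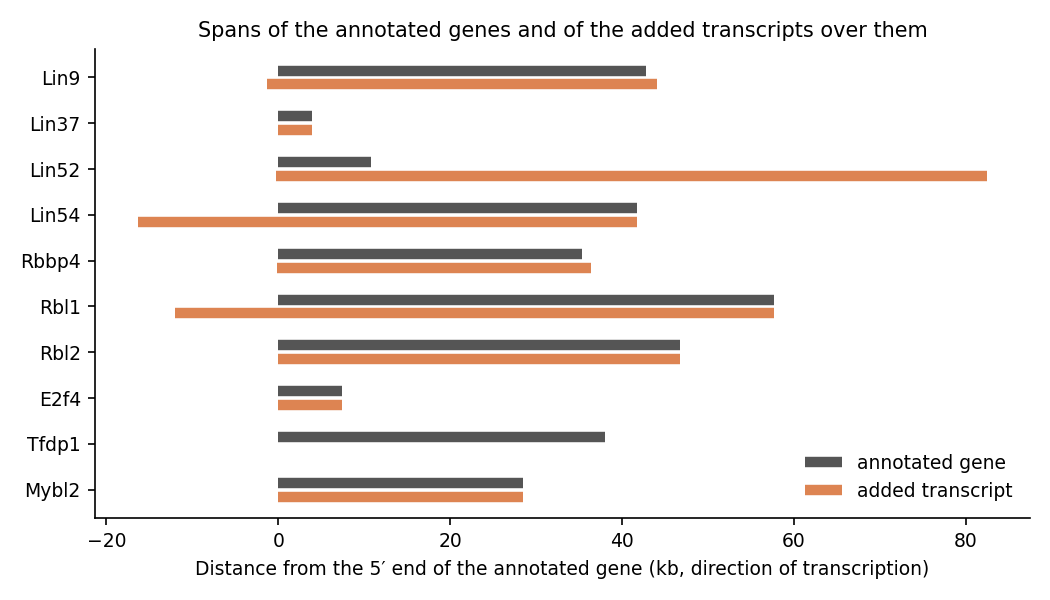
Span of each annotated subunit gene (grey) and of the added transcript over it (orange), in kb from the 5′ end of the annotated gene in the direction of transcription. The Lin52 transcript spans 82704 bases against 10793 for the gene, and Tfdp1 has no added transcript.

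Low counts were also found at other covered genes. Among protein-coding genes, 77.2% of the 6885 genes covered by an added transcript of the same strand over at least 50% of their span stayed below 10 counts in all 6 libraries, against 45.2% of the 14953 genes with no such cover on either strand. The shares at 0 in every library were 49.5% and 23.9%. How many counts an added transcript held moved with the bases it listed beyond those of its gene. The share below 10 counts in every library was 84.0% with 0 to 50 extra bases, where the transcripts of Rbl2 and Mybl2 lie (3 extra bases each), and 67.4% with 51 to 200, where those of Lin37 (126) and Lin54 (152) lie. It was 4.36% with more than 2000 extra bases, where those of Lin52 (2160) and Lin9 (2714) lie. The transcript of E2f4 listed fewer bases than its gene, and 79.3% of such transcripts were below 10 counts. The highest count of a transcript with more than 2000 extra bases had a median of 346, above the 248 of Lin52 and the 10 of Lin9. The transcripts of Rbbp4 (1200 extra bases) and Rbl1 (616) were below 10 counts in classes where 8.79% and 16.5% were. How the reads were assigned between a gene and an added transcript is not given in the sources used here, and its part in these counts was not tested.

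**Figure D4:**
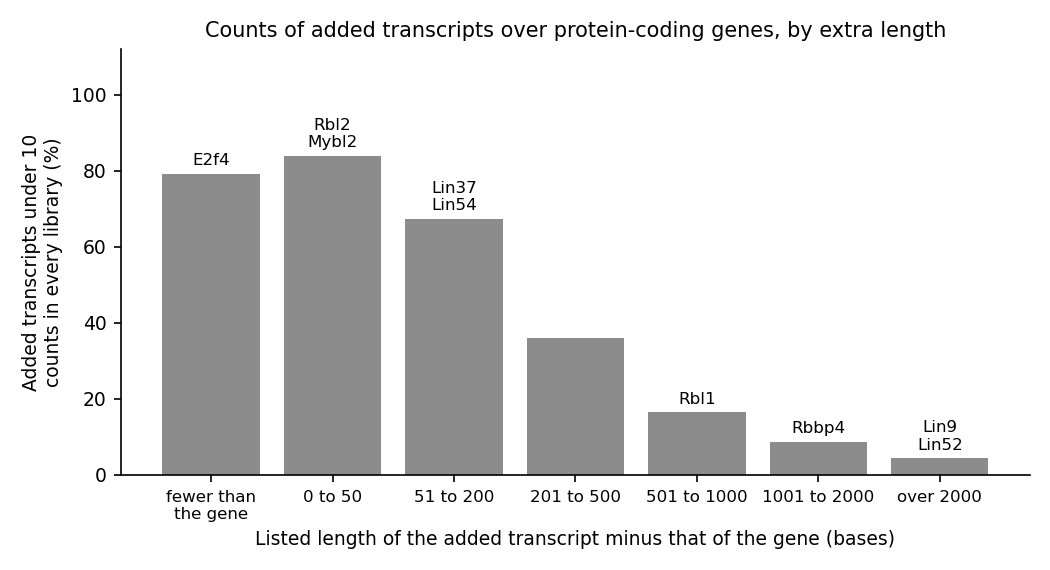
Percent of added transcripts over protein-coding genes with fewer than 10 counts in every library, in classes of the listed length of the transcript minus that of the gene (bases). The subunits whose transcript falls in a class are named above its bar, and the share falls from 84.0% with 0 to 50 extra bases to 4.36% above 2000.

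In the promoters of the subunits, 5 of the 9 with a sequence held a CHR match (55.6%, against 19.7% of all 33469 promoters) and 2 an E2F match (22.2%, against 2.14%). CHR matches were found in Lin9, Lin37, Lin54, Rbl2 and Tfdp1, and E2F matches in Lin52 and Rbl1, so no subunit held both. Rbbp4 and Mybl2 held neither. Of these genes, Tfdp1 and Lin52 had counts enough for the main test.

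The features whose pattern over the 6 libraries was closest to that of Tfdp1 were sought among 9681 annotated genes by the root mean square difference of log2 CPM, centred on each gene. The closest was Gnl2, which encodes a nucleolar GTPase, with a difference of 0.0186 on the log2 scale, compared with a median of 0.198 over the genes. Kcnn4, a calcium-activated potassium channel, followed with 0.0195, and Akr1b1, aldose reductase, with 0.0236. Their own log2 fold changes were 0.17, 0.16 and 0.13, and Kcnn4 was not called (adjusted p = 0.246, edgeR). The genes were picked for this match in the same libraries, so the similar fold changes are no separate result.

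Paralogs and partner factors of the subunits gave further values, since several can stand in for a subunit. Of 11 such genes 7 were tested, of which 1 was called higher and none lower, beside 8.03% and 7.19% of all features tested. The median log2 fold change was 0.09 against 0.002 over all features tested. The gene called was Foxm1, a factor that joins MuvB on mitotic genes, with 60.50, 62.33 and 65.05 CPM in si-NC and 77.31, 75.24 and 83.43 CPM in the libraries labelled si-DYRK1A (log2 fold change 0.33 ± 0.0622 SE, edgeR adjusted p = 7.84e-04). The groups did not overlap. Rbbp7, the paralog of Rbbp4, was 669.5 ± 15.1 and 685.6 ± 9.36 CPM (SD, n = 3 each) and differed by 0.03 on the log2 scale (edgeR adjusted p = 0.639). For Rb1, the third pocket protein, and for the activators E2f1 and E2f2 the log2 fold changes were 0.05, 0.09 and 0.20 (adjusted p = 0.734, 0.349 and 0.41, edgeR). Tesmin, a relative of LIN54, gave -0.39 (adjusted p = 0.372, edgeR). Named after their values were seen, the added transcripts over Tfdp2, the paralog of Tfdp1, and E2f5, that of E2f4, gave -0.03 (standard error 0.112) and 0.16 (standard error 0.196), neither of which was called. E2f3, named in the same way, gave 0.29 for its annotated gene (15 to 31 counts per library). Its added transcript (312 to 411 counts per library) gave -0.11, and neither was called.

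Of 15 regulators of DREAM assembly, 6 were tested, 1 was called higher and none lower, again beside 8.03% and 7.19% of all features tested, and the median log2 fold change was 0.02. With 7 and 6 genes tested, the single call in either of these lists is not a result about the list. Dcaf7, which encodes an adaptor protein bound by DYRK1A, rose from 207.7 ± 2.74 to 233.8 ± 7.77 CPM (SD, n = 3 each), a log2 difference of 0.17 ± 0.0448 (SE, edgeR adjusted p = 0.0116), with no overlap between the groups. Leaving out si-NC replicate 1 (adjusted p = 0.0614), or from the other group replicate 1 (0.0561) or replicate 3 (0.0601, all edgeR), ended this call, and over 16 alternatives the adjusted p ranged from 0.0108 to 0.112. The kinases Cdk2 and Cdk4, which phosphorylate pocket proteins, gave 0.11 and 0.07 (adjusted p = 0.189 and 0.327, edgeR). The D cyclins that activate Cdk4, Ccnd3 and Ccnd2, gave -0.16 and -0.02 (adjusted p = 0.0872 and 0.792, edgeR). Ccnd3 was called lower with library size only (adjusted p = 0.0495), with no filter on low counts (0.00582) and with the replicate block (0.0437, all edgeR), within a range of 0.00582 to 0.382 over its alternatives. Of the 3 added transcripts tested over regulators, that of Dyrk1a is given above. The one over Cdk6, a kinase activated by D cyclins, was 174.9, 192.8 and 173.9 CPM in si-NC and 170.5, 168.4 and 162.4 CPM in si-DYRK1A, with every si-DYRK1A library below every si-NC library, as in 15.3% of all features tested (log2 fold change -0.11, edgeR adjusted p = 0.148). Named like Cdk6 after its values were seen, the added transcript over Cdkn1b, an inhibitor of Cdk2, was 14.9 ± 0.463 and 18.9 ± 0.477 CPM (SD, n = 3 each; log2 fold change 0.34, adjusted p = 0.0289, edgeR). It passed the threshold with all 6 libraries and lost the call whichever one was left out, with adjusted p from 0.053 (without si-NC replicate 3) to 0.113 (without si-DYRK1A replicate 3, edgeR).

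Among the known target genes of DREAM, every one called was higher in the libraries labelled si-DYRK1A, the group in which the summed cardiomyocyte markers were higher too. Both target lists were chosen with earlier results of these data known, so their counts are not independent of those results. Of 30 G1/S targets, genes of DNA replication regulated as a class through E2F elements, 21 were tested. Of these, 14 were called higher and none lower, beside 8.03% called higher among all features tested. The median log2 fold change was 0.28, and all 21 were positive. The smallest p belonged to Mcm3, a subunit of the replicative helicase, with 166.0, 172.8 and 160.9 CPM in si-NC and 220.4, 199.7 and 217.3 CPM in the libraries labelled si-DYRK1A (log2 fold change 0.35 ± 0.0495 SE, edgeR adjusted p = 3.31e-05). It was followed by Mcm5 of the same helicase (0.36), Rfc3 of the clamp loader (0.42) and Chaf1a of the chromatin assembly factor CAF-1 (0.41). The largest p belonged to Slbp, which binds histone mRNA (0.01, adjusted p = 0.915), and to Ung, a uracil DNA glycosylase (0.06, adjusted p = 0.551, both edgeR).

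Of 40 G2/M targets, genes of mitosis regulated as a class through CHR elements, 39 were found (all but Ccnb2) and 23 were tested. Of these, 20 were called higher and none lower, with 8.03% of all features tested called higher, and the median log2 fold change was 0.38. The smallest p belonged to Cdc20, which activates the anaphase-promoting complex, with 134.0, 134.0 and 127.6 CPM in si-NC and 178.5, 177.8 and 180.3 CPM in the libraries labelled si-DYRK1A (log2 fold change 0.44 ± 0.0465 SE, edgeR adjusted p = 8.01e-07). It was followed by Kif20a, a kinesin of cytokinesis (0.48), Plk4, the kinase of centriole duplication (0.57), and Birc5, the survivin of the chromosomal passenger complex (0.56). The tested genes that were not called were Anln, Cks1b and Tpx2, each covered by an added transcript, with log2 fold changes of 0.21, -0.48 and 0.49. All 20 tested G2/M targets without such cover were called higher, as were 14 of the 19 G1/S targets without it. Over covered G2/M targets, 7 added transcripts were tested and 3 were called higher, those of Anln (0.44), Mki67 (0.39) and Nuf2 (0.71), named after their values were seen. The others, over Bub1b, Bub1, Aurka and Cks1b, gave 0.62, 0.56, 0.02 and -0.21 and were not called. Anln encodes the cytokinesis scaffold anillin, Mki67 the proliferation marker Ki-67 and Nuf2 a kinetochore protein. The call for Anln held whichever library was left out, that for Mki67 was lost in each case (adjusted p from 0.0524 without si-NC replicate 1 to 0.197 without si-DYRK1A replicate 3, edgeR), and leaving out si-NC replicate 1 (0.127), or from the other group replicate 1 (0.143) or replicate 3 (0.105, edgeR), ended that for Nuf2.

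**Figure D5:**
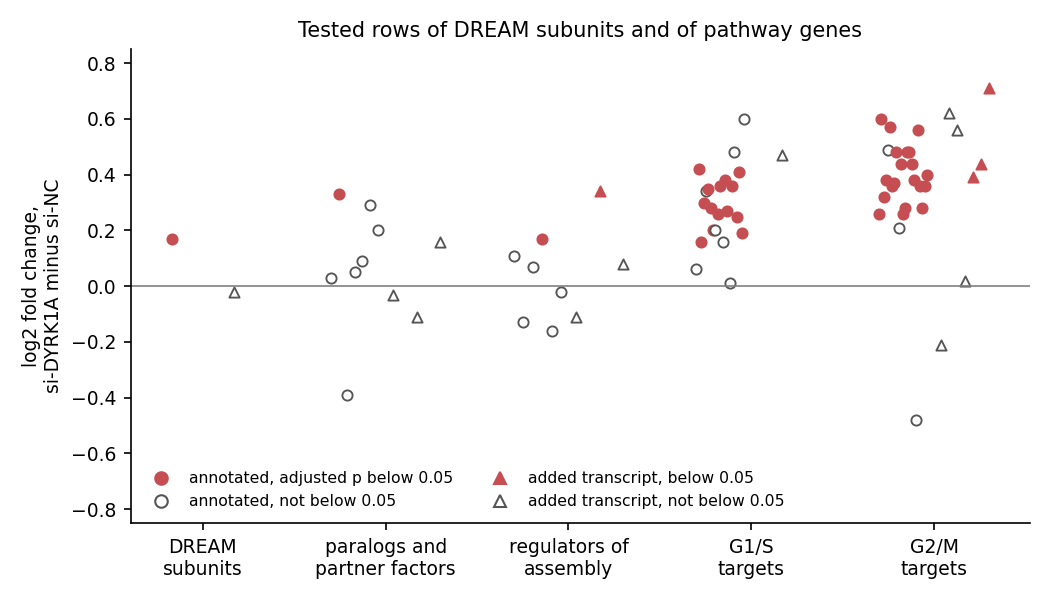
log2 fold change (si-DYRK1A minus si-NC) of each tested subunit, paralog, regulator and target, with circles for annotated genes, triangles for added transcripts over them and filled symbols for an adjusted p below 0.05 by edgeR. Tfdp1 is at 0.17 and the Lin52 transcript at -0.02, while the medians of the annotated G1/S and G2/M targets are 0.28 and 0.38.

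The log2 fold change of Tfdp1 (0.17) was below the medians of both target lists (0.28 and 0.38). Matches to the E2F letters were found in 14 of 24 G1/S promoters (58.3%) and to the CHR letters in 27 of 36 G2/M promoters (75.0%). Of the tested G2/M targets, 13 of 15 with a CHR match and 4 of 4 without one were called higher, and the other 4 had no promoter sequence. Those with a match that were not called, Cks1b and Anln, are covered by an added transcript. Their annotated genes had 9 to 24 and 20 to 37 counts per library. Of the tested G1/S targets, 8 of 12 with an E2F match and 5 of 6 without one were called higher, as were 2 of 6 with a CHR match and 11 of 12 without one. The promoters of Mcm3 and Cdc20 are shown as the targets with the smallest p. Mcm3 held E2F matches that begin 6 bases before and 14 bases into the listed transcript, and Cdc20 a CHR match that begins 51 bases before the listed start.
Mcm3 promoter (GRCr8, chr9:30733697-30733996, minus strand): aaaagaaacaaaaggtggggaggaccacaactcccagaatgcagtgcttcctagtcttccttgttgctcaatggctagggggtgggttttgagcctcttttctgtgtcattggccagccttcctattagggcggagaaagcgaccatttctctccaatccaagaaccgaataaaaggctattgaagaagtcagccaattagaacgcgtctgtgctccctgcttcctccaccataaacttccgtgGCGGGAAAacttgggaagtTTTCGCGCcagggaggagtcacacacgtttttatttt
Cdc20 promoter (GRCr8, chr5:137255750-137256049, minus strand): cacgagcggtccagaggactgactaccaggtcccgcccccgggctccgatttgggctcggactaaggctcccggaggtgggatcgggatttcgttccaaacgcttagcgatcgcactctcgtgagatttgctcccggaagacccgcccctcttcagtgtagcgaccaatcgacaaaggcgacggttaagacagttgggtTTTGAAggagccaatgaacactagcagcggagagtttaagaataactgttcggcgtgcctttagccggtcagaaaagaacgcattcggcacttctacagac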

How the data were processed

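RNA-seq of rat cardiomyocyte cultures was analysed in 6 libraries, 3 si-NC and 3 si-DYRK1A, grouped by their labels. The labels call the replicates biological. The authors deposited raw counts per gene, without normalization, and FPKM values, in which counts are divided by gene length and scaled by library, with the listed gene length in bases. The paper's methods give HISAT2 and Rnor_6.0, whereas the submitters' processing notes list Bowtie 0.12.2 and mm8. The labels give a TruSeq kit and the methods a NEBNext kit. For the counting tool, the annotation release and the strand setting nothing is given in the sources used here, so reads of overlapping genes and antisense transcripts cannot be told apart. Positions of genes are those listed by the authors, and promoters come from RefSeq (GRCr8), with a sequence for 9 of 10 subunits.

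All 43035 features entered one fit of edgeR 4.0.16 (R 4.3.3), with TMM normalization, filterByExpr (minimum count 10, total 15) and a robust quasi-likelihood test, two-sided, adjusted by Benjamini-Hochberg over the 15513 features tested with a threshold of 0.05. Features named were every subunit feature, Dyrk1a and its added transcript, in each pathway list the 4 tested genes with the smallest and the 2 with the largest p, the 3 annotated genes closest to Tfdp1, and cell type markers. A gene that this rule names is not reported here. The subunits and all lists were chosen with earlier results of these data known, so the counts of the lists are not independent of those results. Alternatives were DESeq2 1.42.0, other scaling and filters, limma 3.58.1 on log2(FPKM + 1) and log2(FPKM + 0.1), a replicate block, and each library left out in turn. The scripts were tested on simulated data.

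Counts of a subunit and its added transcript were also summed where the transcript overlaps no other annotated gene. The share of counts in added transcripts was not compared, because it is fixed at all or none for each subunit with at least 10 counts in every library.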

Additional observations from a re-analysis of the deposited data

How the results depend on the processing

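The number of subunits called higher was 1, and it was 0 with limma on log2(FPKM + 1), on log2(FPKM + 0.1) and on log2(FPKM + 1) with no filter, and 0 to 1 when single libraries were left out. For Tfdp1 the adjusted p ranged from 0.0105 to 0.115 over 16 alternatives and passed the threshold in 10. Among these 10 is the sum with added transcripts, which leaves Tfdp1 unchanged (adjusted p = 0.013, edgeR) and is no separate check. The annotated Lin52 gene had no count, so its sum with the added transcript equals that transcript and is no separate check. The log2 fold change of this sum was -0.12 to 0.06 with each library left out. It was positive without si-NC replicate 3 (0.03) and without si-DYRK1A replicate 1 (0.06). Of the paralogs, 0 were called higher with limma and no filter. Of the regulators, 0 were called higher in the same 3 limma settings and 0 to 1 with a library left out, 1 (Ccnd3) was called lower with library size only, no filter or the replicate block, and 2 were called higher when added transcripts were counted too, an alternative chosen after seeing the data. Of the G1/S targets, 6 were called higher with limma and no filter and 11 to 13 with a library left out. Of the G2/M targets, 20 were called higher with each library left out and 14 with limma and no filter. Signs turned for Ccnd2, whose log2 fold change was -0.06 to 0.01 with a library left out (0.01 without si-NC replicate 2), for Slbp with library size only (-0.01) and in the range -0.04 to 0.05 with a library left out (-0.04 without si-NC replicate 1), and for Anln in the range -0.0046 to 0.35 (-0.0046 without si-DYRK1A replicate 3). The cause of these changes was not tested.

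Replicate numbers did not pair the libraries, since the correlations of same-numbered deviations were 0.0578, -0.0261 and -0.00409. With the replicate block the log2 fold change of Tfdp1 was 0.17 (adjusted p = 0.0247, edgeR). At this depth, 16 of 19 subunit features had fewer than 10 counts in every library, and 9 of the 10 annotated genes lie under an added transcript.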
